A study of Mus musculus with 13 samples.

Results

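Foxp3 and 7 genes that encode costimulatory or inhibitory receptors of T cells (Ctla4, Icos, Tnfrsf4, Tnfrsf18, Cd28, Cd27 and Pdcd1) were followed through thymocyte development by split-pool single-cell RNA sequencing. The members were chosen by gene symbol alone, and all 8 were found, once each, among the 57010 genes listed for both kits. The thymus of 2-month-old female C57BL/6N mice was taken as 2 lobes from each of 2 mice for the Parse Evercode WT kit and as 2 lobes from each of another 2 mice for the smaller Parse Mini kit. The lobes were dissociated with enzymes and fixed, and the methods name no sorting. The Mini library is labelled control, and the label of the WT library covers control and chronic stress together. The 4 WT samples were called WT thymic samples 1 to 4 and the 4 Mini samples were called 1-A, 1-B, 2-A and 2-B. The labels do not tie the WT sample numbers to mice, and lobes of 1 mouse are not independent, so that p-values over the 8 samples are too small. The WT library held 16 further samples, pooled under labels that name thymus and spleen, control and chronic stress. Their names in the deposited cell table fall into 3 series (CVS_C, CVS_S and YD_C), which the labels do not explain. Since the labels give no group for any one of them, only ranges and medians over all 16 are shown. The 10x Genomics library of the same lobes was not analysed here.

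Foxp3 is the transcription factor that defines regulatory T cells, the CD4 lineage cells that hold other T cells in check. In the thymus, precursors of these cells arise among CD4 lineage thymocytes that receive a strong signal through the T cell receptor, and signals through costimulatory receptors take part in the process. CD28 and ICOS are immunoglobulin superfamily receptors that bind B7 family ligands and add to the signal of the T cell receptor. CTLA-4 competes with CD28 for the same ligands, is held in large amounts by regulatory T cells and acts as a brake. PD-1, the product of Pdcd1, is a more distant inhibitory relative of CD28. OX40 (Tnfrsf4), GITR (Tnfrsf18) and CD27 (Cd27) belong to the TNF receptor superfamily and signal through TRAF adaptors to NF-kappaB.

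After quality control 39369 cells remained in the WT thymic samples, 19273 in the Mini samples and 81396 in the 16 other samples. The thymic samples held between 3964 and 14186 cells (WT) and between 4280 and 5222 cells (Mini), with median depths of 2912 to 3900 and 2306 to 3078.5 unique molecular identifiers (UMIs) per cell. Cells were clustered without the 8 members, and clusters were given names ending in -like from fixed markers: double negative (DN), proliferating, resting and selected double positive (DP-P, DP-R, DP-S), CD4 and CD8 single positive (SP-CD4, SP-CD8), and others. In each kit 1 cluster had raised markers of both DP-S and SP-CD4 cells and was called transitional. Another had raised markers of both strongly signalled thymocytes and regulatory T cells (18 of 18 listed in the WT kit and 15 of 18 in the Mini kit) and was called signalled/Treg-like, since the markers did not separate these populations. It held 959 WT and 785 Mini cells. The Mini kit had no SP-CD8-like cluster but 831 cells of a mixed mature SP cluster with markers of both lineages. Clusters with no name held 16.6% to 26.7% of the cells of a WT sample and 19.9% to 30.7% of a Mini sample. Cells of the 2 kits shared 3012 combinations of well barcodes, of 103602 in the WT library and 18725 in the Mini library, and within the WT library 19867 combinations were seen in more than 1 sublibrary.

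Members lie close together in 2 places of the genome (GRCm38). Cd28 (chr1:60716800-60773359, plus strand), Ctla4 (chr1:60887000-60915832, plus strand) and Icos (chr1:60977927-61000320, plus strand) follow each other on chromosome 1, with gaps of 114 kb and 62.1 kb. Tnfrsf4 (chr4:156013843-156016612, plus strand) and Tnfrsf18 (chr4:156026164-156028895, plus strand) lie 9.55 kb apart on chromosome 4. Foxp3 (chrX:7573644-7595245, plus strand) overlaps Flicr on its own strand and Ppp1r3f, Gm36995 and Ccdc22 on the other. Cd27 (chr6:125232622-125237010, minus strand) overlaps Vamp1 on the other strand, and Pdcd1 lies at chr1:94038305-94052553 on the minus strand. Ctla4, Icos and Tnfrsf18 overlap Rpl18-ps1, Gm37039 and Gm16008. The sources used here do not say whether counting used strand, so reads of overlapping genes may be shared. The promoters of Foxp3 and of the 3 receptor genes whose share of cells was higher in Foxp3-detected than in matched thymocytes are given here as RefSeq gives them for GRCm38.p6, from 250 bases before to 50 bases after the start, with capitals for any match to the kappaB letters, GGG and CC with 5 bases of any kind between them, on either strand.
Foxp3, chrX:7579426-7579725, plus strand, the first of 2 starts listed: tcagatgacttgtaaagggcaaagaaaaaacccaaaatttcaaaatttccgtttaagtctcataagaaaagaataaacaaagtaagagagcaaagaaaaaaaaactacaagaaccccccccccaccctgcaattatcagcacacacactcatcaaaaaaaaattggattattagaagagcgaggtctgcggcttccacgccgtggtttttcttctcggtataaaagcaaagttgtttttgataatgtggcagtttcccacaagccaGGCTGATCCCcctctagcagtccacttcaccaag
Ctla4, chr1:60908775-60909074, plus strand: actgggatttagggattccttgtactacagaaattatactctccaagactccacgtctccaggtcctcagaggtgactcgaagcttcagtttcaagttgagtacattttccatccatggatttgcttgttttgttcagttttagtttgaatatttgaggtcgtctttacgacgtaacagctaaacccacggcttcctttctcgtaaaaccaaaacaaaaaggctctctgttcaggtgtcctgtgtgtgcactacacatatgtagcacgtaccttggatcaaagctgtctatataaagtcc
Tnfrsf4, chr4:156013445-156013744, plus strand: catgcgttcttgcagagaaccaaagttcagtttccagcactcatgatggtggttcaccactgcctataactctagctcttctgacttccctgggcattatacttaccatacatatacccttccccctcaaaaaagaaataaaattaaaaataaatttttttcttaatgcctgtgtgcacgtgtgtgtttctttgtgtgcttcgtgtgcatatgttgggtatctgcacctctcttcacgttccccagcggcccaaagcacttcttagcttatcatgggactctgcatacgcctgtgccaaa
Tnfrsf18, chr4:156026072-156026371, plus strand: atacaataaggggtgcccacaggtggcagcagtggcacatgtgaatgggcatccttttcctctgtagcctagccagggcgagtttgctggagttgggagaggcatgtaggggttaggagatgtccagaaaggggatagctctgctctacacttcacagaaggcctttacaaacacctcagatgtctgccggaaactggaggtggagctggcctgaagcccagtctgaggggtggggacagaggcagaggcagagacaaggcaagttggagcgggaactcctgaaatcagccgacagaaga
Of the 4 windows shown, that of Foxp3 held 1 kappaB match, on the transcribed side of the start, and the other windows held none. The window of the second Foxp3 start (chrX:7580233-7580532), not shown, held none either. Of all 32851 promoters in the table, 50.8% held a match, so these letters are common. Neither the forkhead letters TGTTTAC (3.65% of all promoters) nor the AP-1 letters TGANTCA (7.81%) occurred in any of the 4 windows on either strand. The table has no entry for Icos and Cd28.

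Foxp3 was rare and had its highest mean in the signalled/Treg-like cells, which overlapped the next class in each kit. At least 1 Foxp3 UMI was seen in 285 of 39369 WT cells and in 123 of 19273 Mini cells, and most of these cells held a single UMI in 7 of 8 samples. They were deeper than other cells, with medians of 8053 against 3310 UMIs (WT) and 6510 against 2707 UMIs (Mini). In signalled/Treg-like cells the Foxp3 level was 43.6, 13.8, 15.9 and 25.1 CPM (the UMIs of a gene scaled to a common total outside ribosomal RNA) in WT samples 1 to 4, a mean of 24.6 ± 13.6 (SD, n = 4). The Mini samples gave 16.7, 16.8, 31.4 and 31 CPM, a mean of 24.0 ± 8.35 (SD, n = 4). DP-P-like, DP-R-like and DP-S-like cells held 0.480 to 1.37 CPM on average, below every signalled/Treg-like sample. In bulk sums of this kind, fewer cells that use a gene and less RNA per cell cannot be told apart. The share of cells with a Foxp3 UMI was 5.65% ± 1.31 in WT and 3.86% ± 1.13 in Mini signalled/Treg-like cells (SD, n = 4 each), at median depths of 4475 and 3084 UMIs.

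Other T lineage classes held Foxp3 UMIs as well. Innate-like T cells, which recognise non-classical ligands, reached 18.5 ± 8.91 CPM in WT and 7.39 ± 9.14 CPM in Mini samples (SD, n = 4 each), and 2 of 4 Mini samples held no Foxp3 UMI there. SP-CD4-like cells held 2.98, 10.5, 8.92 and 12.4 CPM in WT and 1.93, 2.41, 2.83 and 8.03 CPM in Mini samples. The mixed mature SP cells of the Mini kit held 15.9 ± 12.3 CPM (SD, n = 4). B-like cells, which should lack the gene, held a Foxp3 UMI in 5 of 575 WT cells (0.870%, median depth of 1611 UMIs) and in 0 of 118 Mini cells, which allows a share of up to 2.54%. When every cell was thinned to 1000 UMIs, the share with a Foxp3 UMI was 1.78% ± 0.970 in WT and 1.91% ± 0.569 in Mini signalled/Treg-like cells (SD, n = 4 each). It was 0.197% ± 0.248 in WT SP-CD4-like cells and 0.843% ± 0.977 in WT B-like cells, so that the SP-CD4-like share was not above this background, which rests on the 5 B-like cells. The B-like level was 4.32 ± 6.88 CPM in WT samples (SD, n = 4) and 0 CPM in Mini samples, below the SP-CD4-like means of 8.70 and 3.80 CPM. In the Mini kit the thinned share was 0.241% ± 0.289 in SP-CD4-like and 0.326% ± 0.260 in DP-S-like cells (SD, n = 4 each). No Foxp3 UMI was found in 726 transitional cells of the Mini kit, which allows a share of up to 0.413%.

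Among the genes of the CD28 family, Ctla4 had its highest mean in DN-like cells, the earliest stage, in both kits. The Ctla4 level there was 281, 184, 177 and 178 CPM in WT and 179, 201, 203 and 244 CPM in Mini samples. DN-like samples overlapped the next class in both kits, and in the WT kit only sample 1 lay above every SP-CD4-like sample. The level lay between 42.6 and 55.9 CPM on average in the 3 DP classes, with no overlap with DN-like samples. It was at 178 ± 22 CPM (WT) and 72.2 ± 14.9 CPM (Mini) in SP-CD4-like cells, and at 168 ± 15.0 CPM (WT) and 124 ± 29 CPM (Mini) in signalled/Treg-like cells (SD, n = 4 each). The DP means were below those of B-like cells of the same kit, 59.3 ± 16.6 CPM (WT) and 143 ± 54.9 CPM (Mini). In the Mini kit the means of SP-CD4-like and signalled/Treg-like cells were also below that of B-like cells.

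Icos stood apart in innate-like T cells. Its level was 735, 358, 546 and 458 CPM in WT and 483, 620, 464 and 307 CPM in Mini samples, above every sample of any other class. The next highest classes were SP-CD4-like in the WT kit (156 ± 22.1 CPM) and mixed mature SP in the Mini kit (115 ± 9.75 CPM; SD, n = 4 each). DP-R-like cells held 24.6 ± 2.63 CPM (WT) and 29 ± 4.04 CPM (Mini).

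Cd28 was seen in every sample at every stage. Its mean was highest in DP-S-like cells of the WT kit (702 ± 150 CPM) and in signalled/Treg-like cells of the Mini kit (938 ± 60.9 CPM; SD, n = 4 each), and both classes overlapped the next in order. WT sample 1 lay above the other WT samples in DP-R-like, DP-S-like, SP-CD4-like and signalled/Treg-like cells, with 843 CPM against 451, 495 and 460 CPM in signalled/Treg-like cells. B-like cells of the thymic samples held 209 ± 52.3 CPM (WT) and 300 ± 107 CPM (Mini), about the level of DN-like cells at 241 ± 26.3 and 296 ± 41.1 CPM (SD, n = 4 each). In B-like cells of the 16 other samples the median was 4.28 CPM. Whether Cd28 UMIs in thymic B-like and DN-like cells came from other cells was not tested.

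Pdcd1 was high in few classes. Signalled/Treg-like cells held 51.4, 54.2, 53.8 and 65.3 CPM in WT and 50.1, 54.0, 48.7 and 50.4 CPM in Mini samples. Innate-like T cells held 56.0 ± 22.1 CPM (WT) and 71.6 ± 31.8 CPM (Mini), and gamma-delta T-like cells of the WT kit 59.3 ± 22.4 CPM (SD, n = 4 each). DP-R-like samples lay between 0.232 and 1.57 CPM. Pdcd1 was among the 10 leading genes of the signalled/Treg-like cluster in both kits although it was kept out of the clustering.

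Among the TNF receptor superfamily members, Tnfrsf4 and Tnfrsf18 were high in signalled/Treg-like cells, and Cd27 had its highest mean in DP-S-like cells. Tnfrsf4 was highest in signalled/Treg-like cells, at 51.4, 35.3, 34.8 and 45.5 CPM in WT and 17.9, 15.6, 22 and 29.7 CPM in Mini samples. SP-CD4-like cells came next at 32.6 ± 5.87 CPM (WT) and 18.2 ± 2.29 CPM (Mini), and overlapped signalled/Treg-like cells in both kits. Tnfrsf18 reached 28.6 ± 3.52 CPM (WT) and 20.5 ± 4.66 CPM (Mini) in signalled/Treg-like cells, and 22.1 ± 5.07 CPM (WT) and 30.02 ± 8.84 CPM (Mini) in innate-like T cells (SD, n = 4 each). In the DP classes neither gene was above 8.18 CPM in any sample. The Cd27 level in DP-S-like cells was 287 ± 23.3 CPM (WT) and 316 ± 49.1 CPM (Mini). It overlapped the next class in each kit, gamma-delta T-like cells at 262 ± 82.3 CPM (WT) and signalled/Treg-like cells at 286 ± 43.2 CPM (Mini). Cd27 was at 157 ± 11.5 CPM (WT) and 199 ± 18.3 CPM (Mini) in SP-CD4-like cells (SD, n = 4 each).

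**Figure D1:**
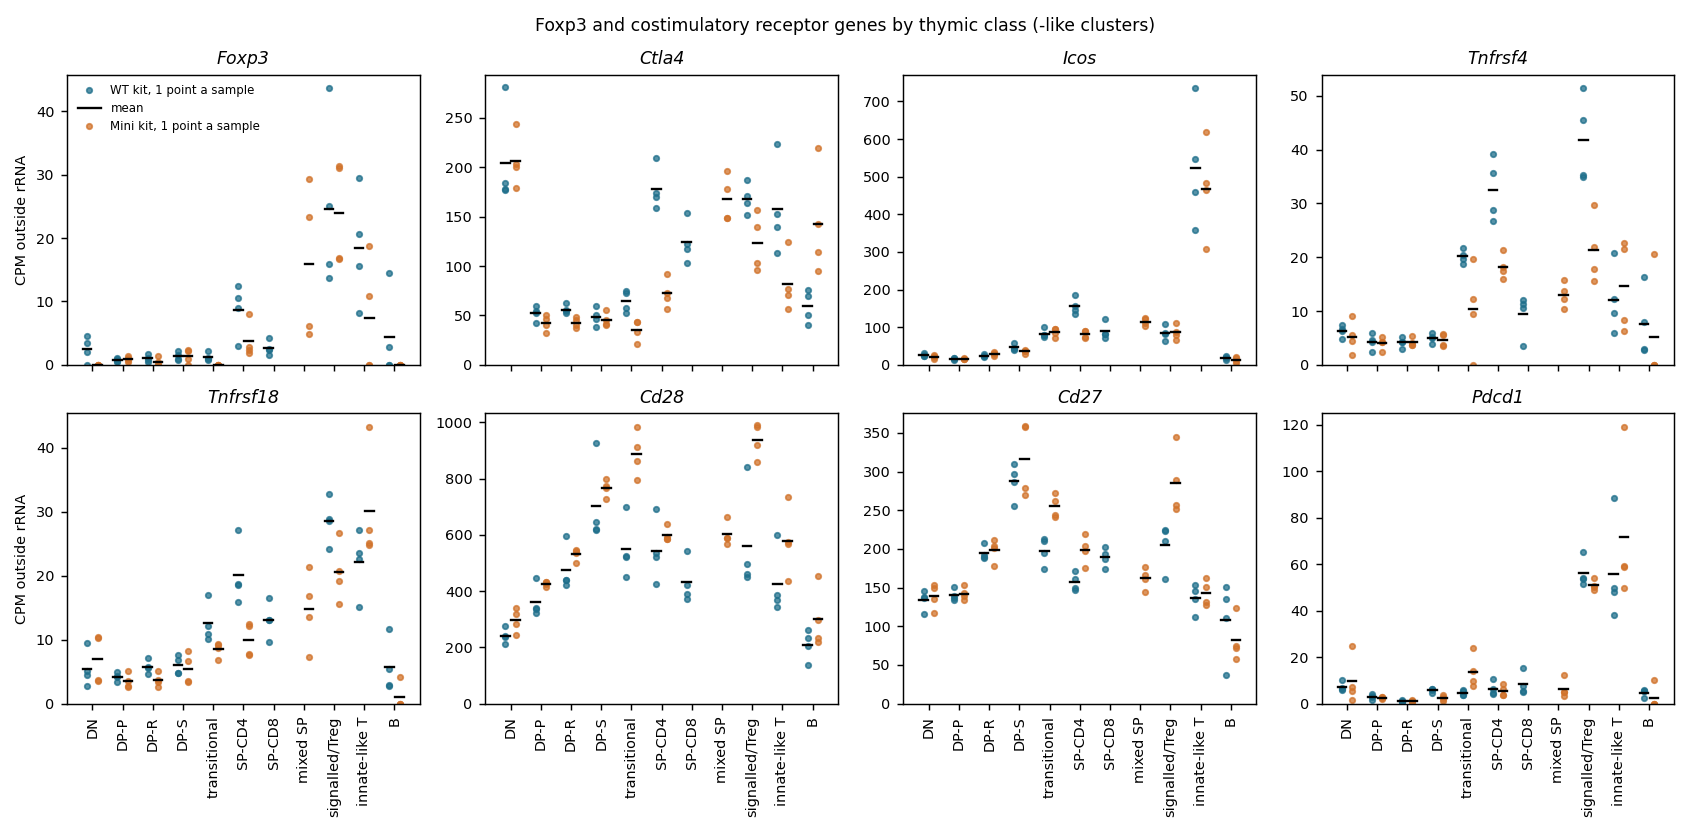
Level of each of the 8 genes, in CPM outside ribosomal RNA (linear axis from 0), by named thymic class, with 1 point a sample and a line for the mean of the 4 samples of a kit. Gamma-delta T-like, antigen-presenting (APC-like) and plasmacytoid dendritic-like cells are not drawn. SP-CD8 was named in the WT kit and mixed SP in the Mini kit only. Foxp3 and Tnfrsf4 have their highest mean in signalled/Treg-like cells of both kits, Icos in innate-like T cells, and Ctla4 in DN-like cells.

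Levels were set beside each other per length of gene, in signalled/Treg-like cells and as kit means. Per kilobase of exon the order in the WT kit ran from Cd28 (91.8 CPM per kb), Cd27 (87.9) and Ctla4 (72.2) over Tnfrsf4 (30.6), Pdcd1 (29.1), Icos (24.7) and Tnfrsf18 (18.7) to Foxp3 (5.37 CPM per kb). Per kilobase of the whole gene with its introns, Cd27 led in the WT kit at 46.6 CPM per kb. Tnfrsf4 followed at 15.1 and Cd28 fell to 9.94 CPM per kb. Foxp3 was lowest by either length, at 5.37 and 1.14 CPM per kb in the WT kit. The order differed in the Mini kit, where Cd28 lay above Tnfrsf4 per kilobase of the whole gene. Per kilobase of exon Tnfrsf4 lay below Pdcd1 and Icos there.

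To ask where along development each gene changed, summed counts of neighbouring classes were compared with edgeR's quasi-likelihood test over the 8 samples. From DP-R-like to DP-S-like cells, the step of positive selection, 4 members rose and none fell. In that comparison 12.5% of the 11061 genes tested were called higher and 14.2% lower. Pdcd1 rose by 2.16 ± 0.33 (log2 fold change ± SE, adjusted p = 2.6e-07), Icos by 0.63 ± 0.12 (adjusted p = 4.0e-05), Cd27 by 0.58 ± 0.06 (adjusted p = 9.6e-12) and Cd28 by 0.52 ± 0.08 (adjusted p = 2.4e-07). Pdcd1 and Icos did not pass the test in the Mini samples alone, at 1.32 (adjusted p = 0.242) and 0.30 (adjusted p = 0.189). Foxp3, Ctla4, Tnfrsf4 and Tnfrsf18 had log2 differences of 0.54 ± 0.52, -0.14 ± 0.14, 0.05 ± 0.24 and 0.18 ± 0.19 and did not pass.

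From DP-S-like to SP-CD4-like cells the pattern was different, with 5 members higher and 2 lower, beside 16.8% and 15.9% of all genes. Tnfrsf4 rose by 2.54 ± 0.22 (adjusted p = 8.1e-15), Foxp3 by 2.42 ± 0.46 (adjusted p = 1.6e-05), Icos by 1.48 ± 0.12 (adjusted p = 6.6e-16), Tnfrsf18 by 1.43 ± 0.21 (adjusted p = 3.8e-08) and Ctla4 by 1.43 ± 0.15 (adjusted p = 3.7e-12). Cd27 fell by 0.80 ± 0.07 (adjusted p = 8.6e-15) and Cd28 fell by 0.40 ± 0.08 (adjusted p = 7.6e-05). Pdcd1 differed by 0.25 ± 0.33 and did not pass. In the Mini samples alone the differences of Foxp3 (1.52, adjusted p = 0.231) and Tnfrsf18 (0.77, adjusted p = 0.187) did not pass. The SP-CD4-like cluster of the Mini kit had 7 of 9 listed markers raised and that of the WT kit 8 of 9. Mini means were lower for Ctla4 (72.2 against 178 CPM), Icos (81.5 against 156), Tnfrsf4 (18.2 against 32.6) and Tnfrsf18 (9.96 against 20.1). They were also lower for Foxp3 (3.80 against 8.70) and Pdcd1 (5.55 against 6.34), and higher for Cd28 (601 against 544) and Cd27 (199 against 157). Whether the clusters of the kits hold the same stage was not tested.

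Between the lineages, SP-CD4-like cells were higher than SP-CD8-like cells in Tnfrsf4, by 1.54 ± 0.23 (adjusted p = 3.1e-06), and in Icos, by 0.55 ± 0.14 (adjusted p = 0.0053), 2 of 8 members called higher beside 3.81% of all genes and none called lower beside 2.74%. SP-CD8-like cells came from the WT kit only, while SP-CD4-like cells of both kits entered the fit. The Icos call was lost without WT sample 2, 3 or 4 (adjusted p = 0.0684, 0.0631 and 0.190), with doublets removed (adjusted p = 0.265) and with no sample term (adjusted p = 0.212). In the WT samples alone Foxp3 (1.55), Ctla4 (0.54), Tnfrsf18 (0.70) and Cd28 (0.34) were also called higher in SP-CD4-like cells, and Cd27 (-0.25) lower, in a fit that called 761 of 11433 genes higher and 636 lower.

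**Figure D2:**
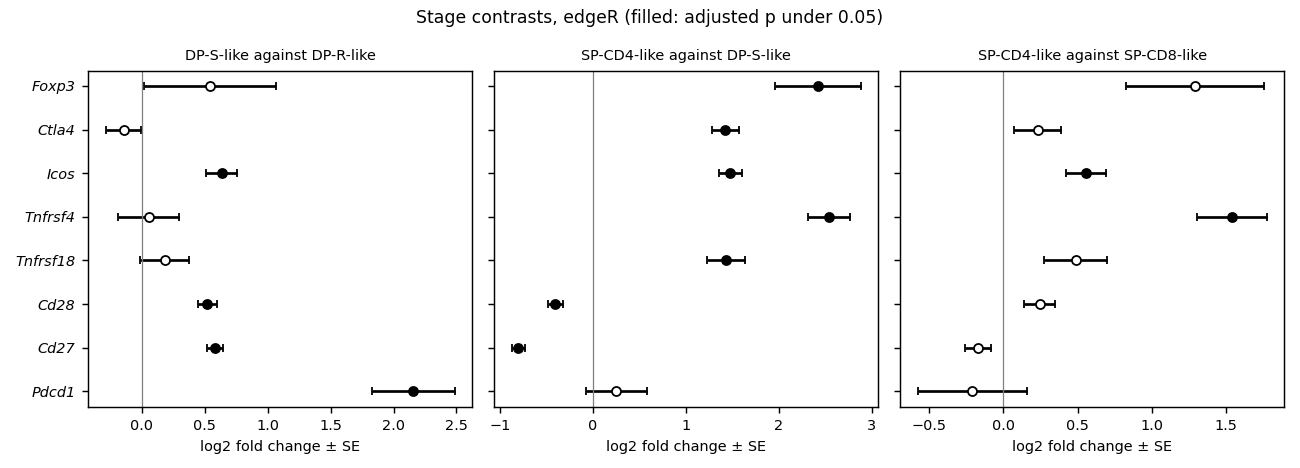
Log2 fold change with its standard error for each gene in the 3 comparisons of classes (edgeR, 8 samples; SP-CD8-like sums from the 4 WT samples), with filled points for an adjusted p under 0.05 and a line at no difference. Pdcd1 has the largest rise from DP-R-like to DP-S-like cells, and Tnfrsf4 and Foxp3 from DP-S-like to SP-CD4-like cells. The Foxp3 values rest on few UMIs.

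The other genes of the pathway were counted by lists in the same fits. From DP-R-like to DP-S-like cells, 4 of the 6 other CD28 family and nectin-binding receptor genes tested rose, among them Btla (2.61 ± 0.22, adjusted p = 1.8e-15), an inhibitory receptor for the TNF receptor HVEM, and Cd226 (2.36 ± 0.14, adjusted p = 5.6e-21), an activating receptor. Among other TNF receptor genes 3 of 11 rose, led by Relt (1.01 ± 0.17), and 3 fell, led by Tnfrsf8 (-0.65 ± 0.23). Of the NF-kappaB and T cell receptor signalling genes 10 of 26 rose, led by Relb (1.68 ± 0.18), and 1 fell. The list medians were 1.38, 0.34 and 0.16 on the log2 scale, and the median of all genes was -0.01, with 12.5% of all genes called higher and 14.2% lower. Of the regulatory T cell genes 10 of 24 rose, led by Ikzf2 (2.27 ± 0.12), and 2 fell, with a list median of 0.41. In the inhibitory list, of receptors and other inhibitory proteins, 2 of 7 genes rose, Cd5 (2.23 ± 0.14) and Cd101 (0.97 ± 0.34). Vsir fell by 0.57 ± 0.08, and the list median was 0.0038. Cd5 was also a listed marker of DP-S cells, so its rise is not independent of the naming of the class. Among ligand genes, 3 of 11 were tested, and Cd274 (1.07 ± 0.13), which encodes the PD-1 ligand PD-L1, and Pdcd1lg2 (0.88 ± 0.33) rose.

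From DP-S-like to SP-CD4-like cells 5 of the 11 other TNF receptor genes tested rose, with Tnfrsf9 (1.62 ± 0.25), Tnfrsf25 (1.60 ± 0.35) and Tnfrsf14 (1.27 ± 0.14) first, and 1 fell. The TRAF gene Traf5 (1.72 ± 0.15), whose product binds OX40 and CD27, and Pik3cd (1.68 ± 0.12) led the 11 of 26 signalling genes that rose, while 3 fell. Of the list of regulatory T cell genes 12 of 24 tested rose and 6 fell. Nt5e (3.36 ± 0.38), which encodes the ectoenzyme CD73, Ikzf4 (2.89 ± 0.21), which encodes Eos, and Il2rb (2.89 ± 0.29), which encodes the beta chain of the IL-2 receptor, rose most, and Ikzf2, which encodes Helios, fell by 1.37 ± 0.12. Among ligand genes Cd86, which encodes a ligand of CD28 and CTLA-4, rose by 3.04 ± 0.34. The other CD28 family and nectin-binding receptors went both ways, with 3 of 6 higher, led by Btla (1.70), and 2 lower, Tigit (-1.23) and Cd96 (-0.22). The inhibitory list did so too, with 3 of 7 higher, led by Cd101 (1.93), and 3 lower, Lag3 (-1.10), Cd5 (-0.68) and Laptm5 (-0.15), which is not a receptor gene. The list medians were 0.11 (TNF receptors), 0.08 (signalling genes), 0.49 (regulatory T cell genes), 0.63 (CD28 family) and -0.03 (inhibitory list), beside -0.02 for all genes, of which 16.8% were called higher and 15.9% lower. Among the B cell genes kept as a check of other cells, 3 of 5 were tested and 1 was called lower in each comparison, Cd79b (-0.81) in DP-S-like against DP-R-like cells and Ighm in SP-CD4-like against DP-S-like (-0.65) and against SP-CD8-like cells (-0.71). The part of B cell RNA in the class differences was not tested. The lists were chosen with earlier results of these data known, and their counts are descriptions. Listed genes that were also class markers, such as Cd5, Tnfrsf9, Ikzf2, Ikzf4 and Il2rb, were not kept out of the clustering.

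Co-detection with Foxp3 was then examined cell by cell. Within SP-CD4-like and signalled/Treg-like cells, each cell with at least 1 Foxp3 UMI was set beside up to 10 cells with none from the same sample and the same narrow range of total UMIs. The median depth was 5098.5 UMIs in Foxp3-detected and 4705 in matched cells, but in Mini samples 1-B and 2-B the Foxp3-detected cells were deeper, at 4452 against 2779 and 11617 against 7274 UMIs. There were 9, 22, 17 and 34 cells with Foxp3 in the WT samples and 8, 8, 12 and 12 in the Mini samples, against 75 to 316 matched cells a sample. Of the 122 cells with Foxp3 in these classes, 85 (69.7%) were signalled/Treg-like and 37 SP-CD4-like. Among all thymic cells with Foxp3, signalled/Treg-like cells were only 55 of 285 (WT) and 30 of 123 (Mini). Clusters with no name held 57 (WT) and 30 (Mini) of them. The mixed mature SP cluster of the Mini kit held 27, against 10 in Mini SP-CD4-like cells. Cells with Foxp3 outside the 2 classes did not enter this comparison. Matching did not use the class, and 41.6% of the 1130 matched cells were signalled/Treg-like.

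Ctla4 had the largest difference in share between Foxp3-detected and matched cells. The share of Foxp3-detected cells with a Ctla4 UMI was 66.7%, 72.7%, 64.7% and 85.3% in the WT samples and 100.0%, 50%, 83.3% and 66.7% in the Mini samples. In matched cells it was 33%, 32.5%, 25.6% and 30.7% (WT) and 13.8%, 20.0%, 25.8% and 20.0% (Mini), so that the 2 kinds of cell did not overlap. The mean difference was 48.5 percentage points (95% interval 34.6 to 63.5, higher in 8 of 8 samples, exact sign-flip permutation p = 0.0078, the smallest that 8 samples allow, adjusted p = 0.014 over the 7 receptors, two-sided).

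The 2 clustered TNF receptor genes followed. Tnfrsf4 was seen in 36.8% ± 11.96 of Foxp3-detected and 9.43% ± 3.91 of matched cells (SD, n = 8), a difference of 27.4 points (95% interval 16.2 to 39.3, 8 of 8 samples, exact permutation adjusted p = 0.014). Tnfrsf18 was seen in 22.9% ± 9.23 and 6.84% ± 2.76 of cells (SD, n = 8), a difference of 16.1 points (95% interval 7.55 to 25.7, 8 of 8 samples, exact permutation adjusted p = 0.014). Foxp3-detected shares of Tnfrsf4 ran from 22.7% to 52.9% over samples and those of matched cells from 2.50% to 14.2%, without overlap, and those of Tnfrsf18 from 12.5% to 41.7% and from 3.33% to 10.7%, likewise without overlap.

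Cd28 went the other way and the remaining receptors showed no difference that passed the test. Cd28 was seen in 74.0% ± 9.52 of Foxp3-detected and 79.7% ± 10.4 of matched cells (SD, n = 8), lower in 8 of 8 samples, a difference of -5.70 points (95% interval -10.4 to -1.65, exact permutation adjusted p = 0.014). Icos differed by 14.6 points (95% interval -7.88 to 36.9, 6 of 8 samples higher, exact permutation adjusted p = 0.24), with Foxp3-detected shares from 11.1% to 75%. The Icos difference was 8.69 points without Mini sample 1-A and 20.7 points without WT sample 1. Cd27 differed by 0.128 points (95% interval -10.7 to 11.2, exact permutation adjusted p = 0.99) and Pdcd1 by 0.717 points (95% interval -5.47 to 5.54, exact permutation adjusted p = 0.88). Intervals of this width do not show that these genes were alike in both kinds of cell.

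The comparison was repeated in each class alone and with other settings. Both settings with 1 class alone were chosen after seeing the data. In signalled/Treg-like cells alone the same 4 genes passed, with differences of 57.8 (Ctla4), 31.2 (Tnfrsf4), 20.1 (Tnfrsf18) and -14.3 points (Cd28; exact permutation adjusted p = 0.014 each). Cd27 differed there by -16.1 points (higher in 3 of 8 samples, exact permutation adjusted p = 0.0875). In SP-CD4-like cells alone, with 37 Foxp3-detected cells, none of the 7 passed. The differences there were 28.4 points for Cd27 (higher in 7 of 8 samples), 25.4 for Ctla4, 25.2 for Icos, 20.1 for Tnfrsf4, 1.57 for Tnfrsf18 and -1.11 for Pdcd1 (exact permutation adjusted p from 0.109 to 0.625). Cd28 differed by 9.19 points, in the other direction than in both classes together (exact permutation adjusted p = 0.131). Depth was poorly matched in this class, with medians of 11765 against 2259 UMIs in Mini sample 1-B and 16264 against 3419 in 2-B. Mini samples 1-A, 1-B and 2-A held 2 Foxp3-detected cells each. The part of depth in these differences was not tested. After thinning to 1000 UMIs, Foxp3-detected cells were set beside all other cells of the classes in place of matched ones, and none of the 7 passed. Ctla4 was higher there in 8 of 8 samples, by 27.5 points (95% interval 18.5 to 37.0), and its exact permutation adjusted p of 0.0547 is the smallest that 1 gene of 7 can reach alone with 8 samples. The other differences were 7.82 points for Tnfrsf4 (6 of 8 samples higher), 4.52 for Tnfrsf18 (5 of 8, 95% interval -1.46 to 10.4), 4.48 for Icos (5 of 8), -4.63 for Cd28 (4 of 8), -1.43 for Cd27 (4 of 8) and -1.17 for Pdcd1 (2 of 8). With doublets removed Cd28 no longer passed (difference of -6.32 points, exact permutation adjusted p = 0.46). Doublets were called among 46.7% of the Foxp3-detected and 43.8% of the matched cells. Both are above the rates at which calls were set, 31% of the cells of a WT and 21% of a Mini sample.

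**Figure D3:**
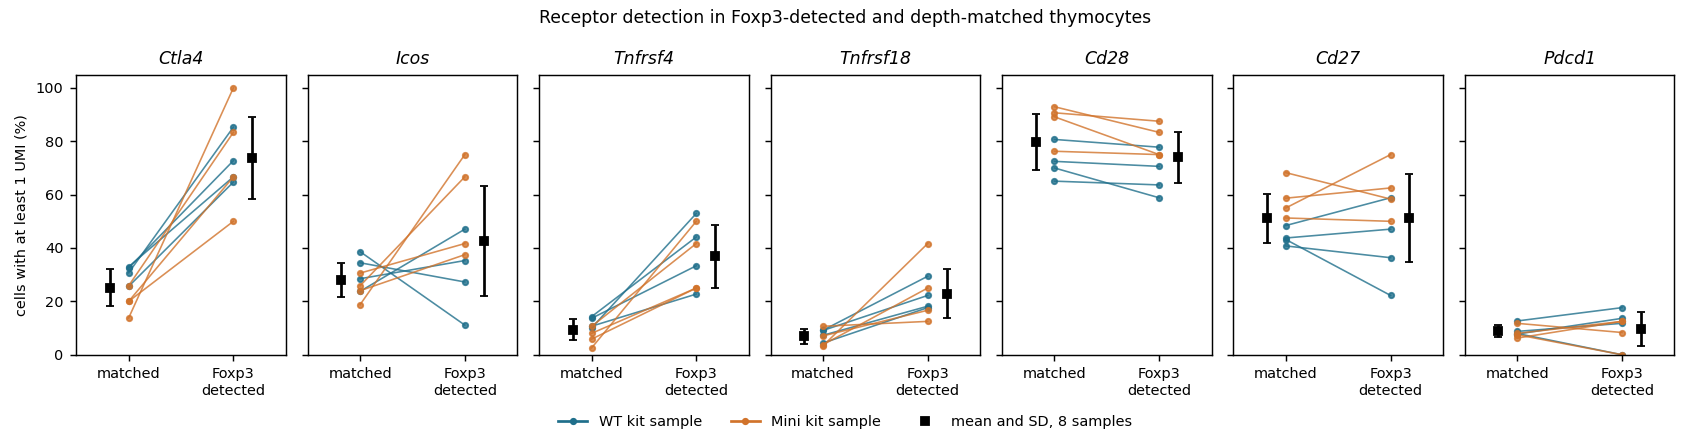
Share of cells with at least 1 UMI of each receptor gene, in percent, in Foxp3-detected cells and in cells without Foxp3 drawn from the same ranges of depth, with 1 line a sample (4 WT, 4 Mini) and squares with bars for mean and SD over the 8 samples. Ctla4, Tnfrsf4 and Tnfrsf18 are higher in the Foxp3-detected cells of all 8 samples.

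The same cells were compared over all genes with edgeR, leaving out Foxp3 itself. Of 4224 genes tested 2.75% were called higher and 0.473% lower in Foxp3-detected cells. Only 4 of the 7 receptors passed the filter on low counts. Ctla4 was higher by 2.71 ± 0.20 (adjusted p = 2.6e-13), and its level was 821 ± 518 CPM in Foxp3-detected and 111 ± 54.0 CPM in matched cells (SD, n = 8), a rise in 8 of 8 samples. Icos (0.59 ± 0.27, adjusted p = 0.37), Cd28 (-0.29, adjusted p = 0.28) and Cd27 (-0.05, adjusted p = 0.97) did not pass. Without the filter Tnfrsf4 (1.97 ± 0.29, adjusted p = 6.2e-09) and Tnfrsf18 (1.48 ± 0.38, adjusted p = 0.012) were higher, Cd28 was lower (-0.52 ± 0.13, adjusted p = 0.0085) and Pdcd1 did not pass (-0.31 ± 0.40, adjusted p = 0.88). These last values rest on few UMIs, with 79 Tnfrsf4 and 33 Tnfrsf18 UMIs in all Foxp3-detected cells.

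Beyond the members, Il2ra, which encodes the alpha chain of the IL-2 receptor (CD25), had the largest rise at 4.12 ± 0.24 (adjusted p = 6.9e-16). Its level was 795 ± 766 CPM in Foxp3-detected and 33.1 ± 16.9 CPM in matched cells (SD, n = 8). The other named rises were Itgb8 (2.51), which encodes an integrin chain that activates TGF-beta, Coro2a (2.48), Ikzf4 (2.23), Hdac9 (2.18), a histone deacetylase gene, and Dusp4 (2.05), a MAP kinase phosphatase gene, with 3 genes known by number only (Gm20275, Gm8369 and the second entry of Gm4956, 3.42). All of these were higher in 8 of 8 samples. The named falls were Hecw2 (-1.95), Sox5 (-1.87), Chsy1 (-1.46), Tacc2 (-1.26) and Hivep3 (-0.99), each lower in 7 or 8 of 8 samples. Of the list of regulatory T cell genes 8 of 16 tested rose and none fell. They were Il2ra, Ikzf4, Il2rb, Nrp1 (1.85), Swap70 (1.181), Rel (0.96), Ikzf2 (0.57) and Foxo1 (0.48). The list median was 0.39 beside 0.00097 for all genes, of which 2.75% were called higher. Il2ra, Ikzf4, Il2rb and Ikzf2 were also listed markers of the signalled/Treg-like class and were not kept out of the clustering. That class made up 69.7% of the Foxp3-detected and 41.6% of the matched cells compared, so these rises are not independent of its naming. In SP-CD4-like cells alone edgeR called 0 of 1382 genes. Among the signalling genes 1 of 22 rose, Rel, which was also counted in the list of regulatory T cell genes. None of the 3 other CD28 family genes, 3 other TNF receptor genes, 4 genes of the inhibitory list and 1 ligand gene tested were called, and of the B cell genes used as a check 1 of 5 passed the filter and was not called.

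The effect of Foxp3 detection was also compared between the kits. It differed for 0.166% of the genes tested (7 of 4224), none of them a receptor member. Tnfrsf4, Tnfrsf18 and Pdcd1 did not pass the filter on low counts and were not tested for a difference between the kits. The rise of Ctla4 was 2.22 ± 0.17 in WT and 3.45 ± 0.24 in Mini samples, a difference of 1.23 ± 0.31 that did not pass (edgeR adjusted p = 0.10). Icos passed in the Mini samples alone (1.27, adjusted p = 0.032) but its difference between the kits, 1.17 ± 0.48, did not (edgeR adjusted p = 0.66).

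Counted over all 7 receptors, a Foxp3-detected cell held UMIs of 2.33 to 3.88 different receptors on average in the 8 samples, and a matched cell 1.73 to 2.41. In WT sample 1, with 9 such cells, the means were 2.33 and 2.26. Between 33.3% and 87.5% of the Foxp3-detected cells and between 21.3% and 45.5% of the matched cells held 3 or more receptors. WT sample 1 went the other way, with 33.3% of its Foxp3-detected and 45.5% of its matched cells.

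The 16 other samples of the WT library held 2095 to 8240 cells each, with median depths of 1525 to 7291 UMIs. Foxp3 was seen there in 1521 of 81396 cells, of which 51.0% fell into 1 Treg-like cluster of 4741 cells and 36.2% into clusters with no name. Such clusters held 19.7% to 84.2% of the cells of a sample. The leading genes of the Treg-like cluster included Foxp3, Ikzf2 and Il2ra but also Il21, a gene of helper T cells. In this cluster Foxp3 had a median of 150 CPM (range 55.9 to 252, 16 samples), above every signalled/Treg-like thymic sample. Ctla4 had a median of 224 CPM (134 to 812), Icos 156 CPM (117 to 252), Tnfrsf4 52.9 CPM (26.3 to 83.9), Tnfrsf18 38.5 CPM (7.04 to 64.0), Cd28 224 CPM (140 to 392), Cd27 142 CPM (0 to 246) and Pdcd1 43.9 CPM (7.00 to 60.9).

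All members but Cd27 were higher in Treg-like than in CD4 T-like cells in each of the 11 samples that held at least 50 cells of both, and Cd27 in 6 of 11. This was counted for the members only, so no share over all genes stands beside it. CD4 T-like cells held a median of 7.94 CPM of Foxp3, 16.8 CPM of Ctla4, 19.4 CPM of Icos and 1.59 CPM of Pdcd1, but 164 CPM of Cd28 and 140 CPM of Cd27. CD8 T-like cells held 40.3 CPM of Icos and 2.49 CPM of Foxp3 at the median. B-like cells were at or below 6.17 CPM for each member at the median. These samples were not tested against the thymic ones, since the labels give them no group.

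Within the Treg-like cluster the cells with a Foxp3 UMI were set beside depth-matched cells in the same way. In the 13 samples with 22 or more such cells each, Ctla4 was seen in a median of 47.6% against 17.1% of cells (higher in 13 of 13), Tnfrsf18 in 15.9% against 5.54% (13 of 13) and Tnfrsf4 in 17.2% against 6.60% (12 of 13). Cd27 was seen in 33.3% against 18.5% (13 of 13) and Icos in 27.8% against 21.9% (11 of 13). Cd28 was seen in 34.1% against 37.2% (higher in 4 of 13) and Pdcd1 in 5.71% against 7.42% (8 of 13). The median depth was 2638 UMIs in Foxp3-detected and 2106.5 in matched cells, so that depth was matched less closely here than in the thymus. Among CD4 T-like cells 1 sample held enough Foxp3-detected cells, 16 beside 160 matched ones. There Ctla4 and Tnfrsf18 were seen in 0% against 4.38% of cells each, Icos in 0% against 2.50%, Tnfrsf4 in 6.25% against 1.3%, Cd27 in 12.5% against 25.6% and Cd28 in 25% against 31.9%, and Pdcd1 in none of either.

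**Figure D4:**
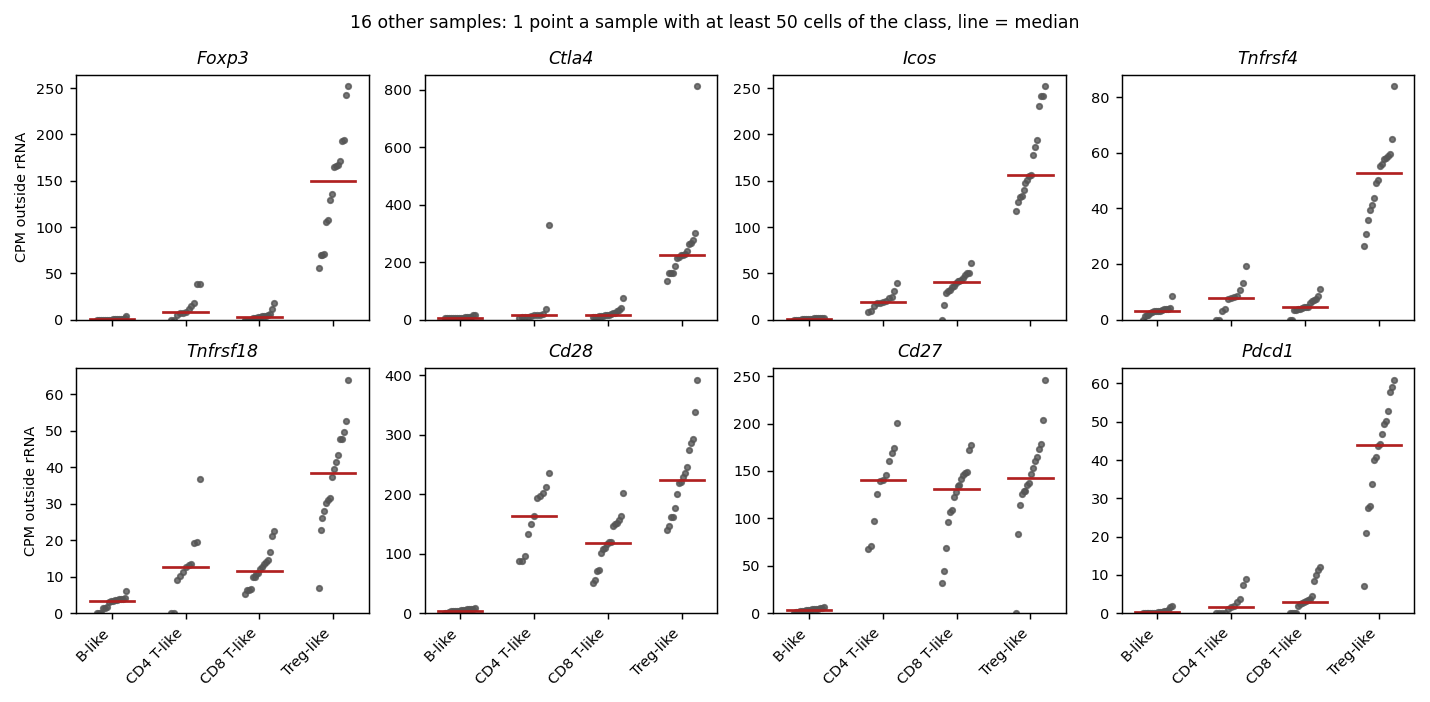
Level of each gene in CPM outside ribosomal RNA (linear axis from 0) in B-like, CD4 T-like, CD8 T-like and Treg-like cells of the 16 other samples, with 1 point for each sample that has at least 50 cells of the class and a line for the median. The median of each gene is highest in Treg-like cells, by little for Cd27 (142 against 140 in CD4 T-like cells), and Foxp3 runs there from 55.9 to 252.

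The genes most alike in pattern were taken from the Pearson correlation of log2(CPM + 1) over 76 sums of a sample and a class, among 13050 genes with at least 200 UMIs. Sums of 1 sample share their library, so these values are descriptions. Foxp3 was most like Tnfrsf9 (r = 0.78), Itgb8 (0.76) and Cyth3 (0.75). Ctla4 was most like Gprin3 (0.80) and the ubiquitin ligase gene Cblb (0.79), and Icos most like Ndfip1 (0.86). Tnfrsf4 and Tnfrsf18 had each other at r = 0.74, and Gm47050 and Gm20275 were among the 3 genes most like either. Cd28 was most like Cd6 (0.93), and Cd27 most like Stat5b (0.87) and Cd6. Pdcd1 was most like Il2rb (0.76).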

How the data were processed

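Mouse thymus cells were profiled with the Parse Evercode WT and Mini kits. Per the methods, the authors ran split-pipe against mm10 from Ensembl and deposited raw UMI counts per gene and cell. The sources used here name no split-pipe version and no Ensembl release. Cells were kept if they held from 500 to 25000 UMIs and no more than 15% of these were mitochondrial, and 3 ribosomal RNA genes were left out of CPM. Thymic samples were integrated with SCTransform and reciprocal PCA (Seurat 5.3.0, sctransform 0.4.2, R 4.3.3) on up to 3000 features without the members, with 30 components at resolution 1. The other samples were log-normalised and clustered at resolution 1.2. Clusters were named by hand from listed markers (raised at least 1.25-fold, 3 or more needed) after their profiles were seen. The members and lists were chosen with earlier results of these data known.

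Counts were summed per sample and class and tested with edgeR 4.0.16 (quasi-likelihood, TMM, Benjamini-Hochberg over all genes, sample as a term), with DESeq2 1.42.0 as an alternative. Matched cells came from the same sample and 0.25 log2 bin of UMIs. Shares were tested by exact two-sided sign-flip permutation over samples, adjusted over the 7 receptors, with intervals by inverting the test. Named genes of the Foxp3 comparison were the 10 largest rises and 5 largest falls among genes called and moving the same way in at least 7 of 8 samples. Doublets were not removed except as an alternative. Scripts were tested on simulated data. The range of depth over samples is given in the report, and limits for 0 counts (3 counts allowed) cover counting error only.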

Additional observations from a re-analysis of the deposited data

Results flagged for a closer look

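Of 64 groups of 4 samples checked, 7 held a sample that stood far from the other 3, where chance gives about 1 in 20. WT sample 1 was high for Cd28 in 3 classes, at 596 CPM in DP-R-like, 926 CPM in DP-S-like and 843 CPM in signalled/Treg-like cells. WT sample 4 held 208 CPM of Cd27 in DP-R-like cells, and WT sample 2 held 1.57 CPM of Pdcd1 in DP-R-like cells. Among the Mini samples, 2-B held 8.03 CPM of Foxp3 and 1-B held 640 CPM of Cd28 in SP-CD4-like cells.

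The change with Foxp3 detection was larger in the Mini than in the WT samples for 7 genes (edgeR interaction, adjusted p from 1.5e-05 to 0.034). The differences were 2.67 for Sntb1, 2.35 for Ubash3b, 2.15 for Rad51b, 1.91 for Hdac9, 1.82 for Gm2682, 1.49 for Il7r and 1.45 for Ccr7 on the log2 scale.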

How the results depend on the processing

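No paired analysis was possible because the replicate numbers in the labels number sublibraries, not tissue samples. The comparisons were instead made within samples, with the sample as a term in edgeR and as the unit of the sign-flip test. For the Foxp3 comparison over all genes 136 genes were called, and 242 with no filter on low counts, 249 in all T lineage clusters, 87 with no sample term, 55 in the WT samples alone, 50 with at least 2 Foxp3 UMIs, and 96 to 142 leaving out 1 sample. In SP-CD4-like cells alone edgeR called 0 of 1382 genes, with 59 at an unadjusted p under 0.05, and DESeq2 called 0. That setting, like that of signalled/Treg-like cells alone, was chosen after seeing the data. Of the 7 receptor shares 4 passed, and 4 also without any 1 sample. The share test was run on the 7 receptors only, so no share over all genes stands beside these counts. After thinning 0 passed, where the comparison cells also changed and 1 gene alone could not pass (smallest exact permutation adjusted p of 0.0547). In SP-CD4-like cells alone 0 passed, and the Cd28 difference turned to 9.19 points. Depth was poorly matched there in Mini samples 1-B and 2-B. From DP-R-like to DP-S-like cells 2951 genes were called, 1866 with no sample term, 1263 in the Mini samples alone and 2434 to 2879 leaving out 1 sample. From DP-S-like to SP-CD4-like cells 3619 were called, 1647 in the Mini samples alone and 3000 to 3528 leaving out 1 sample. Between SP-CD4-like and SP-CD8-like cells 724 were called, 304 with no sample term, 480 with doublets removed and 1397 in the WT samples alone. Leaving out 1 sample gave 313 to 827, with 376, 357 and 313 without WT sample 2, 3 and 4. Of the 8 members 5 had their highest mean over 8 samples in signalled/Treg-like cells among the stage classes, and 4 after thinning, without Tnfrsf4. The share of all genes with this pattern was not computed, so the count is a description. Innate-like T cells were not among these classes. Their Pdcd1 and Tnfrsf18 means lay above those of signalled/Treg-like cells in the Mini kit and below them in the WT kit. The causes were not tested.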
